A study of Homo sapiens with 8 samples.

Results

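Interferon-stimulated genes were followed through confluence in Caco-2/15 cells, a human colon cancer line whose confluent cultures come to resemble absorptive enterocytes. The 38 genes were chosen by symbol from the 58302 gene IDs counted, and all 38 were found, RIGI under its older symbol DDX58. RNA-seq libraries came from postconfluent (Pc, 7 days after confluence) and subconfluent (Sc) cultures of 2 genome-edited populations, with 2 libraries in each of the 4 groups. Z2flag cells carry a Flag epitope tag on 1 allele of H2AFV (now H2AZ2) and Z1flag cells on 1 allele of H2AFZ (now H2AZ1), each gene encoding a form of the histone variant H2A.Z. All 8 libraries are thus from tagged cells, no interferon, virus or other agent is named in the labels, and unedited Caco-2/15 cells were not analysed here. The replicates are duplicates numbered by experiment, and since nothing says that they were separate cultures, the tests measure the spread between these libraries.

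Interferons are secreted proteins that bind cell-surface receptors and, through the JAK kinases, activate STAT transcription factors. STAT2 and IRF9 act together in the complex ISGF3, which binds the interferon-stimulated response element (ISRE) in the promoters of antiviral genes. Many of these genes can also be driven directly by interferon regulatory factors such as IRF1 and IRF7, and in the gut the lambda interferons act mainly on epithelial cells.

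Promoter sequences of 30 of the 38 genes were held in the RefSeq table (assembly GRCh38.p14), each from 250 bases before to 50 bases after the transcription start. The 8 others were IRF7, IFIT2, IFITM2, OAS2, OASL, USP18, MX2 and TRIM22. The core of the ISRE, GAAA, any 2 bases and GAAA again, read on both strands, was in 19 of the 30 promoters (63.3%), against 1255 of 35116 promoters in the table (3.57%). The 6 sequences below were chosen after the values were seen. IFITM1, IFIT1, IFIT3 and ISG15 rose after confluence in both lines, OAS3 fell, and IFI44L had no count in any library. Capitals mark the ISRE core in either orientation, and the capitals in ISG15 hold 2 overlapping matches. All 6 lie on the plus strand: IFITM1 at chr11:313790-314089, IFIT1 at chr10:89392373-89392672, IFIT3 at chr10:89327747-89328046, ISG15 at chr1:1013247-1013546, OAS3 at chr12:112938224-112938523 and IFI44L at chr1:78620198-78620497.
IFITM1: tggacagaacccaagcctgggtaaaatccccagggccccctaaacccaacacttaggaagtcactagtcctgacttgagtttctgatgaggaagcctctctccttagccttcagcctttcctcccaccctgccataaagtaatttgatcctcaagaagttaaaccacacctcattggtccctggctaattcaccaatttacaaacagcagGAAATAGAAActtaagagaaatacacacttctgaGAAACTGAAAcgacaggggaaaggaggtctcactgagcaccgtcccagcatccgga
IFIT1: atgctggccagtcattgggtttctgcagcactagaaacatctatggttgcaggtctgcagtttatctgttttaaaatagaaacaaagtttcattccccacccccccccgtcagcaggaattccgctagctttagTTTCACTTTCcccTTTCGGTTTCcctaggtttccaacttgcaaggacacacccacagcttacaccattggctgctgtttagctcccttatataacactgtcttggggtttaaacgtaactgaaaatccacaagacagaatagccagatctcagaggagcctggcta
IFIT3: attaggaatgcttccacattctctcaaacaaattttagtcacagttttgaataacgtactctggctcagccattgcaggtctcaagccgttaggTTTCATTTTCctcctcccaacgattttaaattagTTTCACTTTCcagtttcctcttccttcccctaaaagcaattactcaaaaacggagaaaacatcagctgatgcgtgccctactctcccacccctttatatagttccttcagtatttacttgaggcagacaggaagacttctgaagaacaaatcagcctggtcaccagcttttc
ISG15: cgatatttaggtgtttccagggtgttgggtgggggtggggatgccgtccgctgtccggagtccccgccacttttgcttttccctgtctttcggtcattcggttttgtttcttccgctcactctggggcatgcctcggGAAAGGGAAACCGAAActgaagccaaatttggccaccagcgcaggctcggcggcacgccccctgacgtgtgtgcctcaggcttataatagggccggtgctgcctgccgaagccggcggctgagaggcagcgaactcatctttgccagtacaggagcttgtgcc
OAS3: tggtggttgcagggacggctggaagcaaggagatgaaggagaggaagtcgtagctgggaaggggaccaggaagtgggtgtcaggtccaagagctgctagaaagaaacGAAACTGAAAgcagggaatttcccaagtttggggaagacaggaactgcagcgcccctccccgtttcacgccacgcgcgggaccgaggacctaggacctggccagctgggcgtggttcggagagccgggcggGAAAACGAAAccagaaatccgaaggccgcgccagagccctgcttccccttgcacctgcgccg
IFI44L: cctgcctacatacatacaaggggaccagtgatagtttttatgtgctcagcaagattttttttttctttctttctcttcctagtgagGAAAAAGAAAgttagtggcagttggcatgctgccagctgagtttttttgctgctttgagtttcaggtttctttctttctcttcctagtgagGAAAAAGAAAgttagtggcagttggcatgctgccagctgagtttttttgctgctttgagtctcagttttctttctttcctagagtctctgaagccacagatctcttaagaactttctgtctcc

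Each of these 6 windows held 2 cores, but all 6 came from the 19 promoters with a core, so they do not show how often it occurs. STAT2, IRF1, IRF9 and OAS1, which rose over both lines, had no core in their windows. The cores began 40 and 6 bases before the start of IFITM1, 116 and 103 bases before that of IFIT1, 156 and 122 bases before that of IFIT3, and 113 and 107 bases before that of ISG15. They began 143 and 12 bases before the start of OAS3 and 164 and 73 bases before that of IFI44L. By outcome over both lines, the core was in 9 of 13 promoters of genes that rose (69.2%), in 1 of 2 of those that fell, in 5 of 8 of those that did not pass the test (62.5%) and in 4 of 7 of those with too few counts to test (57.1%). The core TTCNNNGAA of the gamma-activated site, bound by STAT dimers, was in 9 of the 30 promoters (30%), IRF1 and IRF9 among them, against 7.66% of all promoters. It was in 6 of 13 promoters of genes that rose (46.2%) and in 0 of 2 of those that fell. It was in 2 of 8 of those that did not pass (25%) and in 1 of 7 of those not tested (14.3%). A match gives only the letters in the window, and binding was not measured.

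Gene counts per library ranged from 17063826 to 40881682. Levels are given as CPM (counts scaled to the library's depth, with TMM factors), and tests are edgeR's quasi-likelihood tests with Benjamini-Hochberg adjustment over the 18240 genes that passed a filter on low counts, with a threshold of 0.05. Replicate 1 of Pc and of Sc Z1flag cells had the highest shares of reads in no annotated gene, 31.4% and 32.0%, against 20.6% to 24.5% in the other 6 libraries. The summed level of 8 epithelial markers was 4221 to 7651 CPM in Pc and 11187 to 13473 CPM in Sc cells, and CDX1 was under 0.5 CPM everywhere. Of the 7 markers tested, 4 were higher and 2 lower, against 27.8% and 27.5% of all genes tested. KRT20 (0.051 to 1.38 CPM in Pc, at most 0.0382 in Sc) passed the filter only through its Pc level and so could only be higher. The sum was dominated by KRT8 (1138 to 3631 CPM in Pc, 5866 to 7122 in Sc) and KRT18 (505 to 1791 in Pc, 3448 to 4551 in Sc). EPCAM (651 to 831 CPM in Pc, 439 to 565 in Sc) and CDH1 (934 to 1190 in Pc, 662 to 713 in Sc) went the other way. The sum of 11 leukocyte and plasmacytoid dendritic cell markers, cells that are strong sources of interferon, was 21.9 to 40.1 CPM in Pc and 10.5 to 26.9 CPM in Sc libraries. Of these 11 markers, MS4A1, LILRA4 and NKG7 had no count in any library, and PTPRC had 0 counts in Pc and 3 in Sc libraries. The highest levels were those of LYZ (7.83 to 21.1 CPM in Pc, 3.56 to 11.2 in Sc), CD14 (6.06 to 12.6 in Pc, 5.18 to 12.4 in Sc) and CSF1R (3.33 to 10.7 in Pc, 0.901 to 4.16 in Sc). Of the 5 that could be tested 2 rose, against 27.8% of all genes tested. CD3E, 1 of the 5, passed the filter only through its Pc level and so could only be higher. The tagged genes H2AZ1 and H2AZ2 were both lower in Pc cells, with log2 fold changes of -0.97 (SE 0.19) and -0.79 (SE 0.14), and counts cannot tell the Flag-tagged allele from the other.

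Of the 38 genes, 29 passed the filter, 26 of them by their level in both states. IFIT2, IFITM1 and TRIM22 passed only through their level in Pc cells and so had to be higher there. Over both lines, with 4 libraries a state, 17 genes were higher after confluence and 2 were lower, and 10 did not pass the test. Of the 29, 58.6% were thus higher and 6.90% lower, against 27.8% higher and 27.5% lower among all genes tested. The median log2 fold change of the 29 genes was 0.93, against -0.01 over all genes tested. At least 2-fold, 13 of the 17 were higher. IFIT2, IFITM1 and TRIM22, whose direction the filter had fixed, are among the 17 and the 13 and count in the share and the median. IFIT2 and IFITM1 are also among the genes higher in each line below, and TRIM22 among those higher in Z1flag cells. IFIT2, IFITM1 and TRIM22 count as well among the genes without overlap given next. For 17 genes, SAMD9L being 1 of them without a test, every Pc library lay above every Sc library (25.1% of all genes tested), and OAS3 was the single member with every Pc library below (26.1%). With bulk RNA, more cells of a type and more RNA per cell cannot be told apart in any of these changes.

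**Figure D1:**
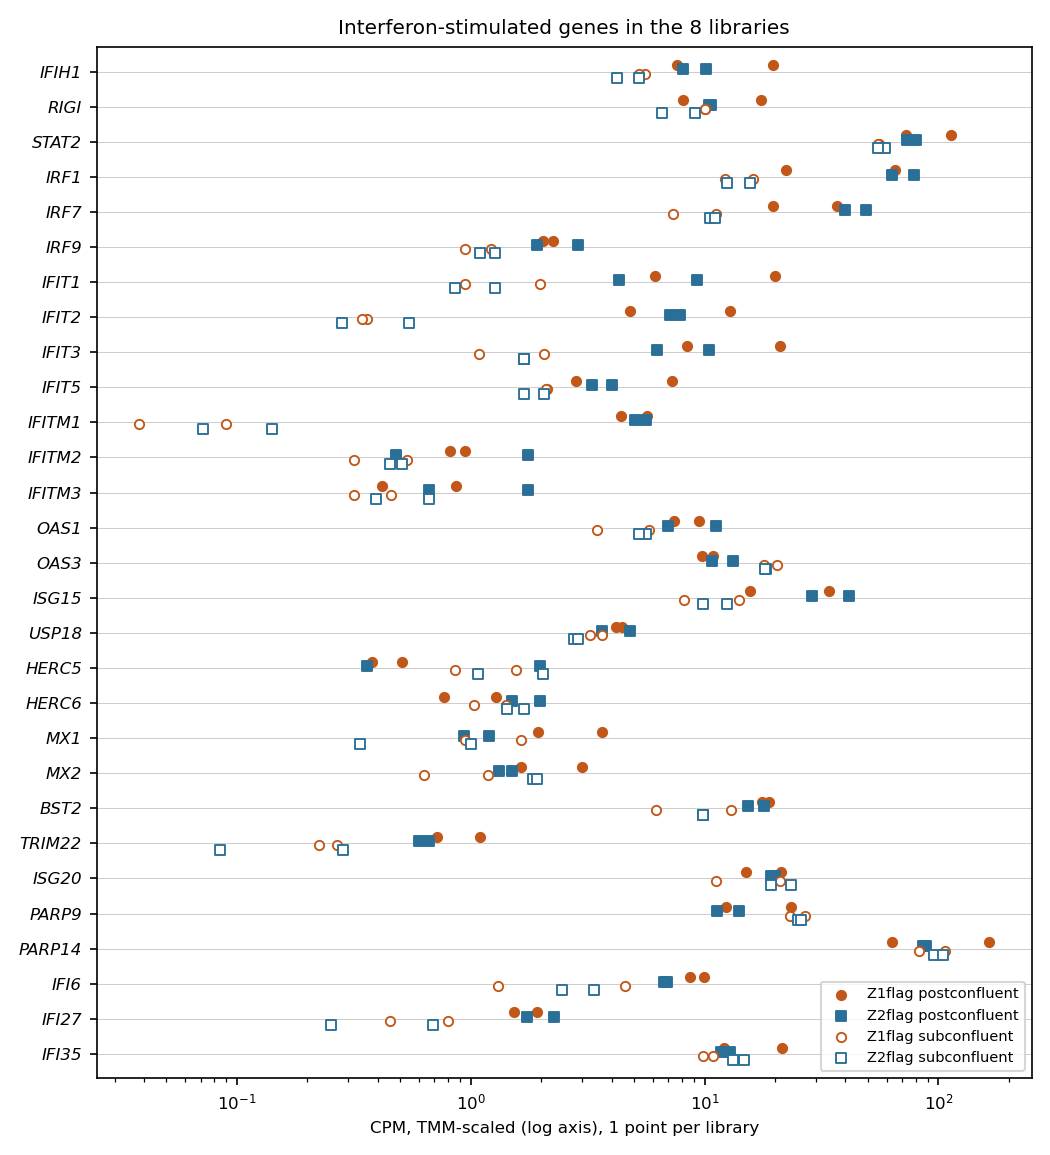
Level of the 29 tested genes in each library, as TMM-scaled CPM on a log axis, with 1 point per library, filled for postconfluent and open for subconfluent cells, circles for Z1flag and squares for Z2flag. The filled points of IFITM1 sit between 4.39 and 5.67 CPM, above all open points (0.0382 to 0.141 CPM), while the filled points of OAS3 (9.80 to 13.2 CPM) sit below its open points (17.9 to 20.5 CPM).

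Within Z2flag cells, 8 of the 29 genes were higher in Pc cells (27.6%), 1 (PARP9) was lower and 20 did not pass, against 18.3% of all genes tested higher and 19.3% lower (37.6% in either direction). Within Z1flag cells, 15 of the 29 were higher (51.7%), 1 (OAS3) was lower and 13 did not pass, against 21.3% of all genes tested higher and 19.1% lower (40.5% in either direction). Medians of the 29 log2 fold changes were 0.94 in Z2flag cells (all genes -0.05) and 1.03 in Z1flag cells (all genes 0.04). The 8 genes of Z2flag cells were all among the 15 of Z1flag cells: IRF1, IRF7, IFIT1, IFIT2, IFIT3, IFITM1, ISG15 and IFI27. IFIH1, STAT2, IFIT5, MX2, BST2, TRIM22 and IFI6 passed in Z1flag cells alone, and IRF9, IFITM2 and OAS1 only over both lines. Both Pc libraries lay above both Sc libraries for 19 genes in Z2flag cells (36.3% of all genes tested) and 22 in Z1flag cells (35.1%), and below for 6 in Z2flag cells (41.2%) and 2 in Z1flag cells (33.5%), counting genes without a test. The 19 and the 22 both hold IFIT2, IFITM1 and TRIM22, whose direction the filter had fixed.

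The Z1flag counts moved when single libraries were left out, and so did the shares of all genes called. Such fits admitted SAMD9 and SAMD9L only through Pc replicate 1 of Z1flag cells, where both were high. Where they count as higher in these fits, that is no test of their direction. Without Sc replicate 1 of Z1flag cells, 4 genes were higher in that line (IFIT1, IFIT2, IFIT3 and IFITM1) and none lower, while the share of all genes tested was 9.08% higher and 9.86% lower. Without Pc replicate 1 of that line, 9 were higher and 3 lower (OAS3, PARP9 and PARP14), against 20.8% and 18.7% of all genes tested. Without both of these libraries 6 were higher and 2 lower, against 13.02% and 13.1% of all genes. The Z2flag counts also moved. They were 16 higher and 2 lower without Pc replicate 1 of Z1flag cells (25.7% and 22.3% of all genes), and 17 and 2 without Pc replicate 2 of Z1flag cells (24.6% and 21.3%). No member was lower in Z2flag cells when any 1 of the 4 Z2flag libraries was left out, against 8.13% to 10.02% of all genes. Over both lines, 15 to 23 genes were higher when 1 library was left out, against 20.8% to 30.7% of all genes.

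The difference between the lines was tested directly. No member's change differed between Z2flag and Z1flag cells (edgeR, 0% of all genes tested), with 1 member at an unadjusted p under 0.05, and neither DESeq2 nor limma voom called 1. That member was MX2, with log2 changes of -0.41 (SE 0.43) in Z2flag and 1.34 (SE 0.44) in Z1flag cells (unadjusted p = 0.0176, adjusted p = 0.799, edgeR). Without Pc replicate 2 of Z1flag cells, the change of IRF1 passed (0.956% of all genes tested did). Between Z2flag and Z1flag cells, no member differed in Sc cells (0% of all genes) or in Pc cells (0% of all genes), with 1 member each at an unadjusted p under 0.05 (MX2 in Sc, MX1 in Pc) and none by DESeq2 or limma voom. The next fit, without Pc replicate 2 of Z1flag cells, admitted SAMD9 and SAMD9L only through replicate 1 of that group. Both were high in that library, so their calls in that fit are no test of direction. Without Pc replicate 2 of Z1flag cells, 7 members differed between the lines in Pc cells: IFIH1, IRF1, IRF7, SAMD9, SAMD9L, PARP9 and PARP14. In that fit 11.3% of all genes tested differed.

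**Figure D2:**
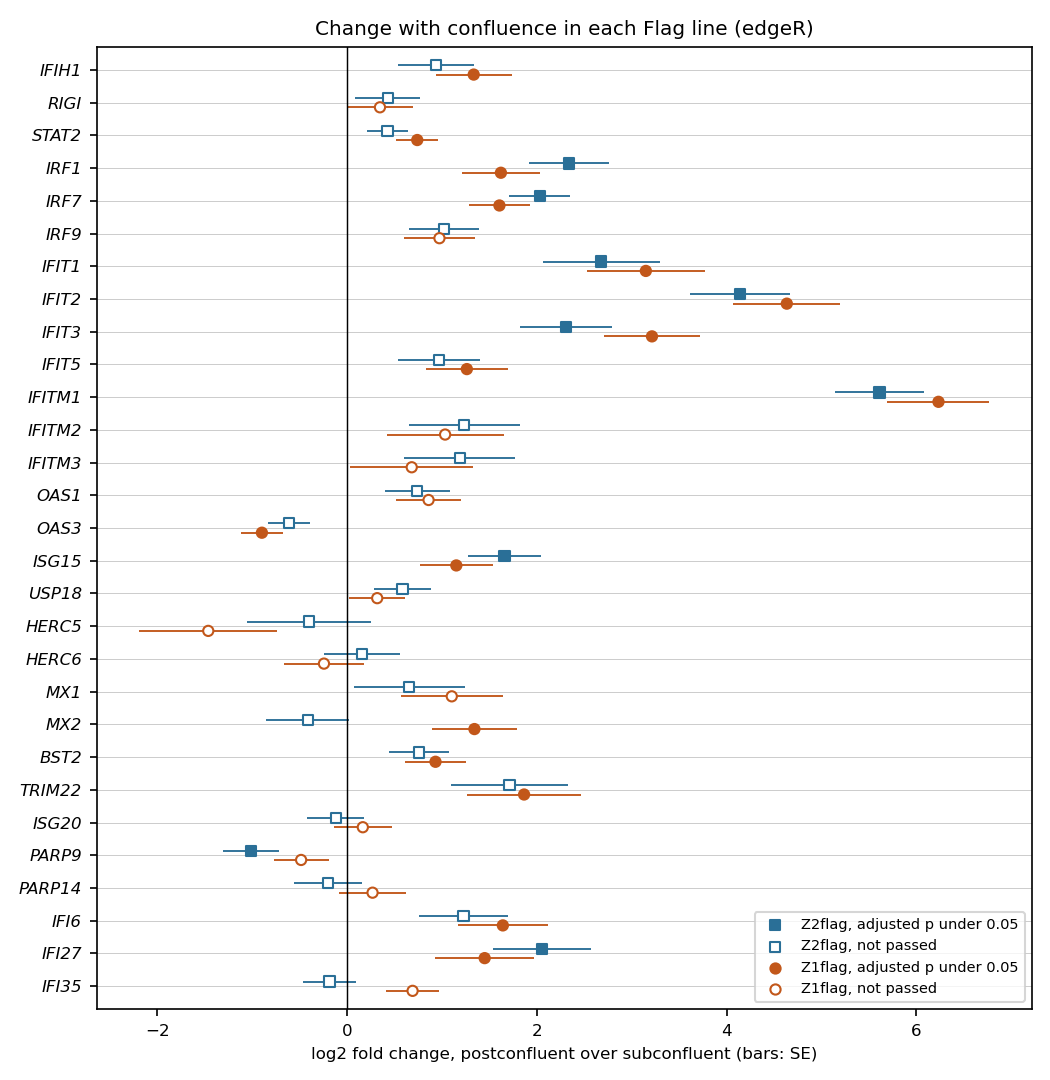
Log2 fold change of the 29 tested genes, postconfluent over subconfluent, in Z2flag (squares) and Z1flag cells (circles), with SE bars, filled where the adjusted p of edgeR was under 0.05. IFITM1 and IFIT2 lie farthest right in both lines (5.61 and 4.14 in Z2flag, 6.23 and 4.63 in Z1flag), and MX2 lies on opposite sides of 0 (-0.41 in Z2flag and 1.34 in Z1flag), though its difference did not pass.

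Among the sensors of viral RNA, IFIH1, which encodes the double-stranded RNA receptor MDA5, rose over both lines. Its level was 19.7 and 7.60 CPM in Pc against 5.59 and 5.27 CPM in Sc Z1flag cells, and 8.05 and 10.1 CPM in Pc against 4.23 and 5.26 CPM in Sc Z2flag cells. All 4 Pc libraries lay above all 4 Sc libraries, with Pc replicate 1 of Z1flag cells well above the others. The mean was 11.4 ± 5.66 CPM in Pc and 5.09 ± 0.591 CPM in Sc cells (SD, n = 4 each), and the change on the log2 scale was 1.14 (SE 0.28, adjusted p = 0.0067, edgeR). RIGI, the sister receptor of IFIH1, showed a log2 change of 0.39 (SE 0.24, adjusted p = 0.197, edgeR), with states that overlapped. DDX60, a helicase linked to RIGI signalling, had 1 to 11 counts a library and was not tested.

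All 4 transcription factors rose over both lines. IRF1, an activator of antiviral and antigen presentation genes, was at 22.3 and 64.9 CPM in Pc against 12.2 and 16.1 CPM in Sc Z1flag cells, and at 78.9 and 63.4 CPM in Pc against 12.5 and 15.7 CPM in Sc Z2flag cells. The states did not overlap, and Pc replicate 1 of Z1flag cells was far below the 3 other Pc libraries (0.322 times their mean). The mean was 57.4 ± 24.4 CPM in Pc and 14.1 ± 2.06 CPM in Sc cells (SD, n = 4 each), and the log2 fold change was 1.98 (SE 0.29, adjusted p = 0.000339, edgeR). IRF7, which amplifies the interferon response, was at 19.7 and 36.8 CPM in Pc against 7.30 and 11.2 CPM in Sc Z1flag cells, and at 49.0 and 39.7 CPM in Pc against 10.6 and 11.1 CPM in Sc Z2flag cells. As for IRF1, Pc replicate 1 of Z1flag cells was the lowest Pc library, and the states did not overlap. Its mean was 36.3 ± 12.2 CPM in Pc and 10.0 ± 1.85 CPM in Sc cells, a change of 1.82 on the log2 scale (SE 0.23, adjusted p = 0.000123, edgeR). Both passed in each line, with log2 fold changes of 2.34 (IRF1) and 2.03 (IRF7) in Z2flag and 1.62 and 1.61 in Z1flag cells; the Z1flag calls were lost without Sc replicate 1 of that line (adjusted p = 0.101 for IRF1 and 0.0506 for IRF7).

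STAT2 and IRF9, which act together in ISGF3, had smaller log2 fold changes. STAT2 was at 113 and 72.9 CPM in Pc against 55.8 and 55.4 CPM in Sc Z1flag cells, and at 73.2 and 80.5 CPM in Pc against 59.4 and 54.9 CPM in Sc Z2flag cells. The Sc libraries were tight and all lay below the Pc libraries, and the log2 fold change was 0.58 (SE 0.16, adjusted p = 0.00951, edgeR; 0.0509 without Sc replicate 2 of Z2flag cells). IRF9 was at 2.04 and 2.25 CPM in Pc against 0.946 and 1.22 CPM in Sc Z1flag cells, and at 2.87 and 1.92 CPM in Pc against 1.09 and 1.27 CPM in Sc Z2flag cells. The states did not overlap, and the log2 fold change was 1.00 (SE 0.26, adjusted p = 0.00904, edgeR; 0.0548 without Sc replicate 1 of Z2flag cells).

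The IFIT genes, whose proteins bind foreign RNA and block its translation, all rose over both lines. They lie together on chromosome 10 (GRCh38). IFIT2 was at 12.8 and 4.80 CPM in Pc against 0.360 and 0.344 CPM in Sc Z1flag cells, and at 7.11 and 7.82 CPM in Pc against 0.547 and 0.281 CPM in Sc Z2flag cells. Every Pc library was thus far above every Sc library, which together held 50 counts. IFIT2 passed the filter only through its Pc level, so its calls are no test of its direction. The log2 fold change was 4.39 (SE 0.39, adjusted p = 2.01e-05, edgeR), and the depth-scaled count ratios were 17.5 in Z2flag cells (33 counts in Sc; exact 95% interval 12.2 to 26.0) and 26.8 in Z1flag cells (17 counts in Sc; 16.5 to 46.4). IFIT3 was at 21.0 and 8.42 CPM in Pc against 1.08 and 2.06 CPM in Sc Z1flag cells, and at 6.28 and 10.5 CPM in Pc against 1.69 CPM in both Sc Z2flag libraries. IFIT1 was at 20.1 and 6.12 CPM in Pc against 0.946 and 1.98 CPM in Sc Z1flag cells, and at 4.30 and 9.32 CPM in Pc against 0.856 and 1.27 CPM in Sc Z2flag cells. For both genes all Pc libraries were above all Sc libraries and Pc replicate 1 of Z1flag cells was highest. Over both lines the log2 fold change was 2.76 for IFIT3 (SE 0.35, adjusted p = 0.000129, edgeR) and 2.92 for IFIT1 (SE 0.44, adjusted p = 0.000372, edgeR); without both replicates 1 of Z1flag cells that of IFIT1 was 2.19.

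IFIT5, which also encodes an RNA-binding protein, had a smaller log2 fold change. It was at 7.26 and 2.81 CPM in Pc against 2.12 and 2.10 CPM in Sc Z1flag cells, and at 3.31 and 4.03 CPM in Pc against 1.69 and 2.05 CPM in Sc Z2flag cells. The states did not overlap, but the gap between the lowest Pc and the highest Sc library was small, and the log2 fold change was 1.12 (SE 0.31, adjusted p = 0.0111, edgeR), or 0.73 without both replicates 1 of Z1flag cells. In the separate lines, IFIT2 and IFIT3 passed under every alternative. The call of IFIT1 was lost in Z1flag cells without both replicates 1 (adjusted p = 0.0856), and in Z2flag cells without Pc replicate 2 (adjusted p = 0.0578) or Sc replicate 1 of that line (adjusted p = 0.0705). IFIT1, IFIT2 and IFIT3 lie within the span of LIPA on the opposite strand, and although the libraries are strand-specific per the labels, no source used here states whether the counting used strand, so a share of LIPA reads in their counts was not tested.

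IFITM1, a membrane protein that blocks entry of enveloped viruses, had the largest change of the 29 genes in either line. Its level was 5.67 and 4.39 CPM in Pc against 0.0901 and 0.0382 CPM in Sc Z1flag cells, and 5.02 and 5.59 CPM in Pc against 0.0713 and 0.141 CPM in Sc Z2flag cells. The 4 Pc libraries were close to each other, and the 4 Sc libraries together held 11 counts, close to none. The log2 fold change was 5.92 (SE 0.36, adjusted p = 4.09e-06, edgeR). Depth-scaled count ratios were 51.3 in Z2flag cells (184 counts in Pc and 8 in Sc, exact 95% interval 25.5 to 121) and 82.7 in Z1flag cells (236 counts in Pc and 3 in Sc, 27.9 to 404), and IFITM1 passed in each line under every alternative. These intervals cover counting error only. IFITM1 passed the filter only through its Pc level, so its calls are no test of its direction.

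IFITM2 and IFITM3, close relatives of IFITM1 on chromosome 11, stayed low. IFITM2 was at 0.945 and 0.817 CPM in Pc against 0.315 and 0.534 CPM in Sc Z1flag cells, and at 1.76 and 0.481 CPM in Pc against 0.452 and 0.506 CPM in Sc Z2flag cells. Here the states overlapped, and the highest Pc library was replicate 1 of Z2flag cells. Its log2 fold change over both lines was 1.13 (SE 0.43, adjusted p = 0.0433, edgeR), but the call was lost under 10 of the alternatives, and without Pc replicate 1 of Z2flag cells the log2 fold change was 0.57 (adjusted p = 0.268). IFITM3 showed a log2 change of 0.93 (SE 0.44, adjusted p = 0.0923, edgeR). The IFITM2 gene model spans IFITM1 on the same strand and the family is similar in sequence, so reads may be divided between these genes or left out by the counting.

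OAS1, OAS2 and OAS3 encode enzymes that make oligoadenylates, which switch on the ribonuclease RNase L. In the OAS family OAS1 rose, OAS3 fell, and OAS2 and OASL were near 0. The genes of the enzymes lie side by side on chromosome 12, and OASL lies farther along it. OAS1 was at 6.98 to 11.2 CPM in the 4 Pc and 3.47 to 5.80 CPM in the 4 Sc libraries, a change of 0.80 on the log2 scale (SE 0.24, adjusted p = 0.0168, edgeR). That call was lost without Sc replicate 1 of Z1flag cells (adjusted p = 0.0804), Sc replicate 1 of Z2flag cells (0.0509), Sc replicate 2 of Z2flag cells (0.0655) or both Z1flag replicates 1 (0.0841). OAS3 was at 9.80 and 10.8 CPM in Pc against 20.5 and 17.9 CPM in Sc Z1flag cells, and at 13.2 and 10.7 CPM in Pc against 18.3 and 18.2 CPM in Sc Z2flag cells. All Pc libraries were below all Sc libraries, and OAS3 fell by 0.75 on the log2 scale (SE 0.16, adjusted p = 0.00253, edgeR), a call kept under every alternative. OAS2 had 6 counts in all and OASL 10.

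In the ISG15 system, the ubiquitin-like modifier itself rose, while USP18, HERC5 and HERC6 did not pass. ISG15 was at 15.6 and 34.0 CPM in Pc against 8.20 and 14.05 CPM in Sc Z1flag cells, and at 41.6 and 28.8 CPM in Pc against 9.84 and 12.5 CPM in Sc Z2flag cells. The states did not overlap, though Pc replicate 1 of Z1flag cells was close to the highest Sc library. The mean was 30.0 ± 10.9 CPM in Pc and 11.1 ± 2.62 CPM in Sc cells (SD, n = 4 each), a change of 1.41 on the log2 scale (SE 0.27, adjusted p = 0.00172, edgeR). Per kilobase of annotated exon it was the highest of the 38 genes in both states, at 31.9 CPM per kb in Pc and 11.8 CPM per kb in Sc cells. In Z2flag cells its call was lost without Pc replicate 1 (adjusted p = 0.059) or Sc replicate 1 of that line (0.0743), and in Z1flag cells under 6 alternatives, with a log2 fold change of 0.48 without Pc replicate 2 of that line. USP18, the protease that removes ISG15 and dampens the interferon receptor, showed a log2 change of 0.45 (SE 0.21, adjusted p = 0.0929, edgeR). HERC5, the ISG15 ligase, had -0.93 (SE 0.49, adjusted p = 0.13, edgeR), and its relative HERC6 -0.04. UBA7, the activating enzyme of ISG15 and not 1 of the 38 genes, rose: its level was 4.69, 3.57, 3.09 and 3.61 CPM in Pc against 0.0901, 0.153, 0.238 and 0.0844 CPM in Sc libraries (the pair of Z1flag cells given first, as for other genes given so), and its log2 fold change 4.66 (SE 0.37, adjusted p = 1.22e-05, edgeR). UBA7 too passed the filter only through its Pc level, so its call is no test of its direction.

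The MX genes encode dynamin-like antiviral GTPases, and neither passed over both lines. MX1 ranged over 0.937 to 3.63 CPM in Pc and 0.338 to 1.64 CPM in Sc libraries, with a log2 change of 0.88 (SE 0.40, adjusted p = 0.0828, edgeR). MX2 was at 1.32 and 1.50 CPM in Pc against 1.85 and 1.91 CPM in Sc Z2flag cells, and at 2.99 and 1.63 CPM in Pc against 0.631 and 1.18 CPM in Sc Z1flag cells. It passed in Z1flag cells (adjusted p = 0.0349, edgeR) and not in Z2flag cells (0.477), a Z1flag call lost without Pc replicate 1 (0.152) or Sc replicate 1 of that line (0.223), or without Sc replicate 1 (0.0658) or Sc replicate 2 of Z2flag cells (0.0662).

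Among the other antiviral effectors, BST2 and TRIM22 rose and ISG20 did not pass. BST2, or tetherin, which holds budding virions on the cell surface, was at 15.4 to 18.9 CPM in the 4 Pc and 6.17 to 12.9 CPM in the 4 Sc libraries, with a log2 change of 0.85 (SE 0.22, adjusted p = 0.00906, edgeR). TRIM22, a ubiquitin ligase that restricts several viruses, was at 1.10 and 0.714 CPM in Pc against 0.225 and 0.267 CPM in Sc Z1flag cells, and at 0.662 and 0.601 CPM in Pc against 0.285 and 0.0844 CPM in Sc Z2flag cells. Its states did not overlap at these low levels (27 counts in all Sc libraries), and its log2 fold change was 1.79 (SE 0.43, adjusted p = 0.00547, edgeR). TRIM22 passed the filter only through its Pc level, so its call is no test of its direction. It lies within the span of TRIM5 on the opposite strand, with the same limit as for LIPA. ISG20, an RNA exonuclease, showed a log2 change of 0.02 (adjusted p = 0.933, edgeR). RSAD2, or viperin, had 2 counts in all.

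SAMD9 and SAMD9L, neighbours on chromosome 7 that restrict poxviruses, were too low to test and were singled out after their values were seen. SAMD9 had 58 and 1 counts in Pc against 4 and 8 in Sc Z1flag cells, and 2 and 4 counts in Pc against 4 and 6 in Sc Z2flag cells. SAMD9L had 53 and 3 counts in Pc against 1 and 0 in Sc Z1flag cells, and 4 and 4 counts in Pc against 1 and 0 in Sc Z2flag cells. In both, nearly all counts of Pc cells were in replicate 1 of Z1flag cells. Scaled by depth, that library was 17.02 times (exact 95% interval 7.76 to 44.2) the 3 other Pc libraries for SAMD9 and 9.90 times (5.11 to 21.0) for SAMD9L.

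Of the ADP-ribosyltransferases, PARP9 fell and PARP14 did not pass the test. PARP9, which acts with the ubiquitin ligase DTX3L, was at 23.5 and 12.3 CPM in Pc against 23.3 and 26.9 CPM in Sc Z1flag cells, and at 11.2 and 14.01 CPM in Pc against 25.2 and 25.7 CPM in Sc Z2flag cells. Only Pc replicate 1 of Z1flag cells reached the Sc range, and PARP9 fell by 0.75 on the log2 scale over both lines (SE 0.21, adjusted p = 0.0113, edgeR). The call was lost with upper-quartile scaling (adjusted p = 0.0511) and without Pc replicate 1 of Z2flag cells (0.0549), and in Z2flag cells alone (adjusted p = 0.0224) it was lost when any 1 of that line's libraries was left out (0.0686 to 0.164). PARP14, which attaches single ADP-ribose units to proteins, was at 63.3 to 165 CPM in Pc and 82.7 to 107 CPM in Sc libraries, with a log2 change of 0.04 (adjusted p = 0.915, edgeR). Its direction rested on the Pc libraries of Z1flag cells: without replicate 2 it was higher in Pc cells over both lines (log2 0.34, adjusted p = 0.0343, edgeR), and without replicate 1 it was lower (log2 -0.33, adjusted p = 0.0426, edgeR).

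Of the IFI genes, 2 rose. IFI6, a small membrane protein with antiviral activity at the endoplasmic reticulum, was at 9.91 and 8.62 CPM in Pc against 1.31 and 4.58 CPM in Sc Z1flag cells, and at 6.89 and 6.74 CPM in Pc against 2.45 and 3.38 CPM in Sc Z2flag cells. IFI27, a related membrane protein, was at 1.93 and 1.53 CPM in Pc against 0.451 and 0.801 CPM in Sc Z1flag cells, and at 2.26 and 1.74 CPM in Pc against 0.689 and 0.253 CPM in Sc Z2flag cells. In neither gene did the states overlap. The log2 fold change over both lines was 1.43 for IFI6 (SE 0.33, adjusted p = 0.00452, edgeR) and 1.75 for IFI27 (SE 0.37, adjusted p = 0.00252, edgeR). In Z2flag cells the call of IFI27 was lost without Pc replicate 1 (adjusted p = 0.0613) or Sc replicate 2 of that line (0.122), and in Z1flag cells under 9 alternatives. IFI35 showed a log2 change of 0.25 (adjusted p = 0.299, edgeR). IFI44 and IFI44L had no count, which allows up to 0.0712 to 0.18 CPM depending on the library, and XAF1, a partner of the apoptosis inhibitor XIAP, had 14 counts in all.

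Library by library, the median of the 29 genes relative to the Sc mean was 0.88 and 0.54 in Pc Z1flag replicates 1 and 2, and 0.71 and 0.56 in Pc Z2flag replicates 1 and 2, on a scale of log2(CPM + 0.5). Over all genes tested these medians lay between -0.05 and 0.04. Pc replicate 1 of Z1flag cells was the highest Pc library for 15 of the 29 genes (36.4% of all genes) and the lowest for 6 (35.3% of all genes): IRF1, IRF7, ISG15, IFITM3, OAS3 and ISG20. Relative to the mean of the other Pc libraries it had 3.05 times the IFIT1 level, 2.497 times IFIT3, 2.29 times IFIH1 and 2.67 times MX1, but 0.471 times IRF7 and 0.449 times ISG15. The same library had a no-feature share of 31.4%, and its leukocyte marker sum, 21.9 CPM, was the lowest of the Pc libraries. Its epithelial marker sum, 4221 CPM, was also the lowest of the Pc libraries, and its endothelial marker sum, 22.8 CPM, the highest. The part of the no-feature share and of these marker sums in the differences was not tested.

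**Figure D3:**
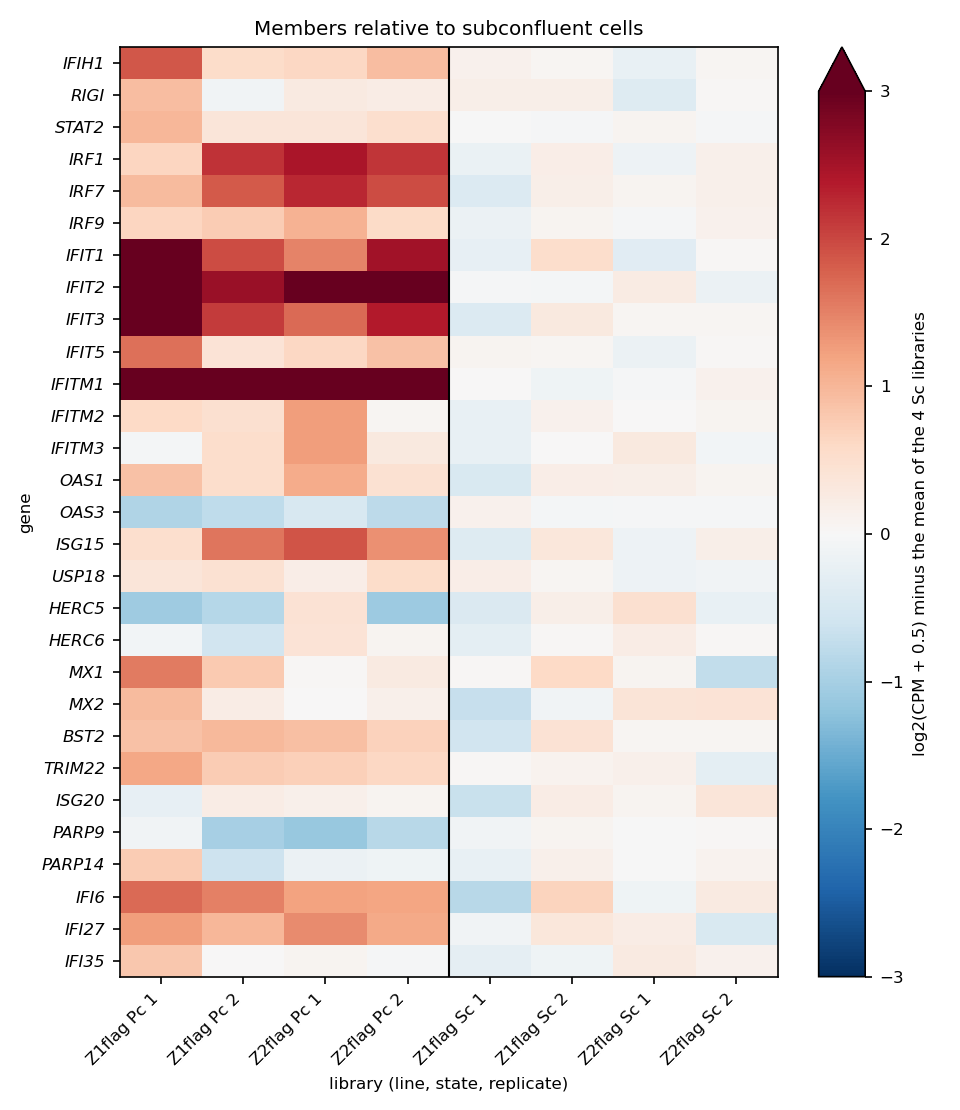
Level of the 29 tested genes in each library as log2(CPM + 0.5) minus the mean of the 4 subconfluent libraries of that gene, with postconfluent libraries on the left and values above 3 shown at the end of the colour scale. In Z1flag Pc 1, IFIT1 and IFIT3 are darker than in the 3 other postconfluent libraries (20.1 and 21.0 CPM), while IRF1, IRF7 and ISG15 are paler (22.3, 19.7 and 15.6 CPM).

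The receptors, regulators and sensing genes of the interferon pathway did not move in 1 direction, while other interferon-induced genes were more often higher than lower. None of 21 interferon ligand genes could be tested: 15 had no count in any library, and the highest count of any other in 1 library was 2. Of 11 receptor, kinase and STAT genes, 3 were higher and 2 lower over both lines (median log2 fold change 0.26), against 27.8% and 27.5% of all genes. IFNLR1, the receptor chain for lambda interferons, rose by 0.79 on the log2 scale (SE 0.16, adjusted p = 0.00247, edgeR), at 26.0, 35.6, 24.6 and 32.1 CPM in Pc against 15.4, 17.7, 17.3 and 17.8 CPM in Sc libraries, without overlap. STAT3, which acts downstream of many cytokines, rose by 0.60 (SE 0.14, adjusted p = 0.00449, edgeR). With upper-quartile scaling, which put the median of all genes at 0.18, 5 of the 11 were higher and 1 lower, and without Pc replicate 1 of Z2flag cells 1 was lower, the receptor chain IFNAR1 being lost.

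Of 11 negative regulators, 3 were higher and 5 lower (median -0.36), against 27.8% and 27.5% of all genes. IRF2, a repressor at ISREs, rose by 1.10 on the log2 scale (SE 0.19, adjusted p = 0.000727, edgeR), and the corepressor TRIM28 and the SUMO ligase PIAS4 fell by 0.88 and 0.79. The count of 5 held ADAR and PTPN2, which were lost in 9 of the alternatives, which left 3 lower genes. Of these alternatives, 6 left out 1 library: any 1 of the 4 Sc libraries, Pc replicate 1 of Z1flag cells or Pc replicate 2 of Z2flag cells. Of the 3 higher genes 1 was left, without SOCS1 and SETDB1, when the fit had no Sc replicate 1 of Z1flag cells or no Sc replicate 2 of Z2flag cells. Of 20 genes of nucleic acid sensing and interferon induction, 13 were tested, of which 5 were higher and 5 lower (median -0.02), against the same shares of all genes. IRF5, a factor downstream of Toll-like receptors, rose by 2.70 (SE 0.28, adjusted p = 4.88e-05, edgeR) and NLRC5, the activator of MHC class I genes, by 2.67 (SE 0.28, adjusted p = 5.12e-05, edgeR), whereas SAMHD1, which degrades nucleotides needed for viral DNA synthesis, fell by 1.44 (SE 0.15, adjusted p = 5.46e-05, edgeR). For all 3 the states did not overlap.

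Of 48 other interferon-induced genes, 37 were tested, and 18 of them were higher and 8 lower, against 27.8% and 27.5% of all genes. Their median log2 fold change was 0.78. UBA7, whose direction the filter had fixed, counts among the 18 and in this median. Beside UBA7, the secreted glycoprotein LGALS3BP rose by 2.91 (118 ± 7.62 CPM in Pc and 15.8 ± 5.28 CPM in Sc cells, SD, n = 4 each; adjusted p = 1.53e-05, edgeR) and the helicase HELZ2 by 1.50 (46.1 ± 2.17 CPM in Pc and 16.3 ± 1.49 CPM in Sc cells; adjusted p = 2.01e-05, edgeR). WARS1, the tryptophanyl-tRNA synthetase induced by interferon gamma, fell by 1.88 (21.5 ± 5.55 CPM in Pc and 79.3 ± 6.98 CPM in Sc cells; adjusted p = 4.15e-05, edgeR). Without Pc replicate 2 of Z2flag cells, 5 of this list were lower, and CXCL10, NMI and ZC3HAV1 no longer passed.

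**Figure D4:**
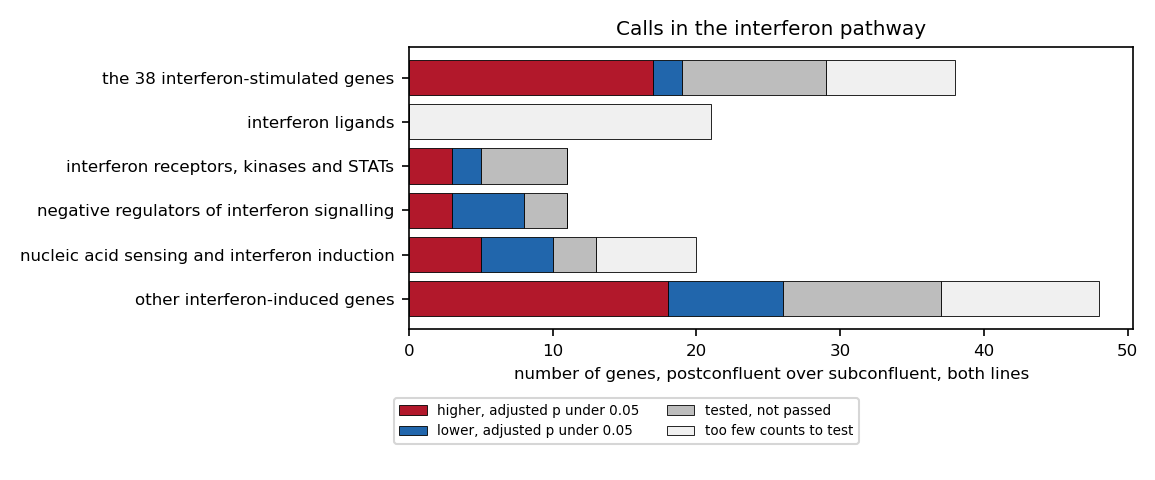
Number of genes in each list that were higher (red), lower (blue) or not past the threshold (grey) in postconfluent over subconfluent cells across both lines, or had too few counts to test (pale), by edgeR. The 38 interferon-stimulated genes split into 17 higher and 2 lower, and the 48 other interferon-induced genes into 18 higher and 8 lower, while none of the 21 ligand genes could be tested.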

How the data were processed

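The deposited values are counts per gene ID from 8 strand-specific, rRNA-depleted, paired-end libraries, per the labels. HTSeq, SAMtools, STAR 2.5.2b and the build hg38 are listed without roles, per the submitters' processing notes; the annotation and strand setting of the counting are not stated in any source used here. Each library held 17063826 to 40881682 gene counts, and reads in no feature (20.6% to 32.0%) stayed out of the library sizes. All 37 mitochondrial IDs were at 0. Positions and exon lengths came from GENCODE v29 (58039 of 58302 IDs) and promoters from RefSeq (GRCh38.p14).

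The test was edgeR 4.0.16 in R 4.3.3 (TMM, filterByExpr with minimum count 10 and minimum total 15, robust quasi-likelihood fit, 4 residual degrees of freedom) in 1 fit of 4 group means, with Benjamini-Hochberg adjustment over 18240 genes. Contrasts were Pc against Sc in each line and over both, the difference between the lines' changes, and Z2flag against Z1flag in each state. The script was tested on simulated counts. The SE is the log2 fold change divided by the root of F. CPM per kb uses the union of exons. Count ratios have exact 95% intervals, and floors are 3 counts per library, for counting error only.

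The 38 genes, the lists and the rules were chosen with earlier results of these data known. Values in every library are given for genes past the threshold in both lines, or over both lines with a log2 fold change of at least 1 in size, and for the 4 transcription factors; from each pathway list come up to 3 genes with mean CPM of at least 1 and the smallest adjusted p, with the first of the other direction (1 such gene is not reported here). Lists are described by counts and medians, with no set test. IFI44L, OAS3, SAMD9, SAMD9L, PARP9, MX2 and other genes shown in more detail than this were picked after their values were seen. The fit was repeated with upper-quartile and with RLE scaling, by limma 3.58.1 voom and DESeq2 1.42.0, with no filter, CPM of at least 1 in 2 libraries, a replicate block, only the libraries compared, each library left out, and both Z1flag replicates 1 left out. Deviations of libraries with the same experiment number correlated at -0.18 to 0.178 across genes, so the numbers were not taken to pair the libraries. Markers of fibroblasts summed to 56.5 to 80.3 CPM in Pc and 172 to 212 CPM in Sc libraries (COL1A2 at 0), and of endothelial cells to 7.99 to 22.8 CPM in Pc and 4.64 to 11.3 CPM in Sc libraries (KDR at 0). Of the fibroblast markers, PDGFRA (4.27 to 12.1 CPM in Pc, 61.5 to 103 in Sc), LUM (9.80 to 31.7 in Pc, 55.9 to 92.5 in Sc) and COL3A1 (0.945 to 4.19 in Pc, 6.40 to 21.8 in Sc) were lower in Pc cells. COL1A1 went the other way (28.1 to 39.3 CPM in Pc, 10.6 to 12.6 in Sc).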

Additional observations from a re-analysis of the deposited data

Results flagged for a closer look

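Within the 4 libraries of a state, 8 of the 62 groups of values examined had 1 library set apart from the rest by Dixon's criterion; chance sets apart about 1 in 20 groups. Among Pc libraries, replicate 1 of Z1flag cells was set apart high for DDX60 (0.416 CPM, others 0.11 to 0.153), SAMD9 (2.19 CPM, others 0.051 to 0.241), SAMD9L (2.00 CPM, others 0.153 to 0.241) and IFI35 (21.4 CPM, others 11.8 to 12.8). Replicate 1 of Z2flag cells was set apart high for HERC5 (1.98 CPM, others 0.361 to 0.51). Among Sc libraries, replicate 1 of Z1flag cells was set apart low for IRF7 (7.30 CPM, others 10.6 to 11.2) and high for OAS3 (20.5 CPM, others 17.9 to 18.3), and replicate 1 of Z2flag cells low for IFIT5 (1.69 CPM, others 2.05 to 2.12).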

How the results depend on the processing

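No call made in the reported fit turned its direction under any of the 17 alternatives. PARP14, not called there, passed higher in Z1flag cells without their Pc replicate 2 (log2 0.80) and lower without their Pc replicate 1 (-0.55) or both replicates 1 (-0.73), and likewise over both lines (0.34, -0.33 and -0.44). Of 44 called values of the 38 genes, 22 kept their call throughout, 14 of 19 over both lines, 5 of 9 in Z2flag and 3 of 16 in Z1flag cells, and the cause of the losses was not tested. Whether the experiment numbers pair the libraries is not known. With a replicate block 16 genes were higher and 2 lower over both lines, against 27.3% and 27.3% of all genes tested. The block gave 9 and 1 in Z2flag cells (17.6% and 18.7% of all genes) and 13 and 1 in Z1flag cells (20.4% and 18.8%). Leaving out 1 library gave 6 to 17 higher and 0 to 2 lower genes in Z2flag cells, 4 to 20 higher and 0 to 3 lower in Z1flag cells, and 15 to 23 higher and 2 to 3 lower over both lines. It gave 0 to 1 genes whose change differed between lines, 0 in the comparison of lines in Sc cells and 0 to 7 in Pc cells; a lone library left in a group was assumed to vary like the others. Fitting only the libraries compared gave 15 higher genes in Z2flag and 9 in Z1flag cells, against 25.1% and 17.2% of all genes tested. In the reported fit these shares of all genes were 18.3% and 21.3%. With no filter 2 genes were lower in Z1flag cells (HERC5 joined OAS3), against 11.6% of all genes. In that fit 1 gene (SAMD9) differed between the lines in Pc cells, against 0.628% of all genes. By limma voom 2 were lower in Z2flag cells, against 19.8% of all genes. Upper-quartile scaling, which took the median of all genes over both lines to 0.18 and the share of higher among called genes to 62.0% (50.3% with TMM), called 19 members higher and 1 lower over both lines and 0 lower in Z2flag cells. In the lists, that scaling gave 5 higher and 1 lower receptor, kinase and STAT genes, 3 lower negative regulators and 5 lower other induced genes; requiring CPM of at least 1, or leaving out both Z1flag replicates 1, gave 3 lower negative regulators. Leaving out 1 library gave 3 to 4 higher and 1 to 2 lower receptor, kinase and STAT genes, 1 to 4 higher and 3 to 5 lower negative regulators, 4 to 5 higher and 5 to 5 lower sensing genes, and 17 to 22 higher and 5 to 9 lower other induced genes. Depth limits the 9 untested genes, of which only SAMD9 and SAMD9L exceeded 0.416 CPM. SAMD9 and SAMD9L entered fits with 1 library left out only through Pc replicate 1 of Z1flag cells. Their calls in those ranges are thus no test of direction.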
